A study of Mus musculus with 6 samples.

Results

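The RNA levels of 9 growth-associated genes were compared in satellite cells of adult mouse muscle, which are quiescent stem cells that divide after injury: the chromatin proteins Hmga1, Hmga2, Hmgb1, Hmgb2 and Hmgb3, the RNA-binding proteins Igf2bp1, Igf2bp2 and Igf2bp3, and Lin28b. These 9 symbols were chosen by name, with their values in the same libraries already known, and are 9 of the 24067 symbols that both expression tables hold. Their levels are therefore a description and carry no test. PolyA RNA libraries represent 4 groups: freshly isolated cells of WT (wild-type) and of Yy1 iKO genotype, iKO being the label for loss of the transcription factor Yy1, and cells of each genotype activated by 36 h in culture. A YY1 chromatin immunoprecipitation library and an input library, labelled C57, came from activated cells. The sources used here do not give how the Yy1 allele was removed, what else the WT animals carried, or how many animals were pooled. With 1 library per group no difference has a replicate check.

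HMGA proteins bind the minor groove of AT-rich DNA through short AT-hook motifs, and HMGB proteins bend DNA through HMG boxes. Both classes change how chromatin is packed and how other factors reach it. Hmga2 is known for high expression in embryonic and growing cells and low expression in most adult tissues, and in myoblasts it has been described as an activator of Igf2bp2. IGF2BP proteins bind messenger RNAs, among them those of Igf2 and Myc, and affect their stability, location and translation. Lin28b blocks the maturation of let-7 microRNAs, which repress Hmga2, Lin28b and Igf2bp1.

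Expression is given as FPKM, the fragments of a transcript divided by its length and by the fragments of the library, as deposited by the authors, so that levels of different genes can be set side by side. Yy1 itself, the check of the labels, had 51.0 FPKM in WT against 20.1 in iKO before culture, and 55.2 against 2.03 after it. Each library held from 10657 to 10947 genes that reached 1 FPKM. The summed FPKM lay between 505469 and 545755 in 3 libraries and at 1245942 in the activated iKO library, where the microRNA gene Mir762 made up 39.8%. The 12 satellite cell markers summed to 3468 and 3265 FPKM in freshly isolated WT and iKO cells and to 1503 and 1255 in activated ones. Pax7, which defines the type, stood at 61.8, 78.3, 28.3 and 6.19 FPKM in that order. Myog, a gene of differentiation, stood at 8.28 and 9.55 FPKM in freshly isolated WT and iKO cells and was listed at 0 in both activated libraries. In activated cells 3 of 11 measured satellite cell markers, Pax7, Vcam1 and Cd34, were at least 2-fold lower in iKO, where 8.26% of all 11215 measured genes were. The part of these markers in the results was not tested. Of markers of other cells, the summed level of 6 fibroblast genes was 489 and 420 FPKM in freshly isolated WT and iKO cells and 40.2 and 19.4 in activated ones. The 6 endothelial genes summed to 19.3, 15.9, 2.98 and 2.88 FPKM in the same order, the 6 pericyte and smooth muscle genes to 97.3, 95.2, 38.0 and 22.4, and the 5 Schwann cell genes to 12.5, 12.3, 2.13 and 2.08. The 6 immune genes summed to 7.12, 6.77, 4.23 and 14.9 FPKM, with the pan-leukocyte gene Ptprc listed at 0 in both activated libraries. Both immune genes measured in activated cells were at least 2-fold higher in iKO, where 8.74% of all genes were. Cd68 stood at 1.36 and 5.16 FPKM in activated WT and iKO cells and Cd14 at 2.80 and 9.75, and their part in the results was not tested. Since these are bulk samples, fewer cells of a type and less RNA per cell cannot be told apart.

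RefSeq promoter windows (build GRCm38.p6) were found for 8 of the 9 genes. Igf2bp1 had no entry. The 250 bases before the start site are shown for the 4 genes on which the results below turn: Hmga2 and Igf2bp2, whose levels moved farthest and in opposite directions on activation, Hmgb3, which was lower in both iKO libraries, and Hmgb2, which was not. They are printed on the gene's strand, and capitals mark the 4-letter core of the YY1 motif, CCAT on either strand, or the longer motif GCCATNTT that contains it.
Hmga2 (chr10:120476470-120476719, minus strand): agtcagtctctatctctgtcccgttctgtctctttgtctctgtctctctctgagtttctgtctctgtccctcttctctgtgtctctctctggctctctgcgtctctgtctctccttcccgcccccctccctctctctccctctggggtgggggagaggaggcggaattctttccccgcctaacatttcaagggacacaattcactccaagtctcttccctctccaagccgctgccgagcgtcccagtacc
Igf2bp2 (chr16:22163300-22163549, minus strand): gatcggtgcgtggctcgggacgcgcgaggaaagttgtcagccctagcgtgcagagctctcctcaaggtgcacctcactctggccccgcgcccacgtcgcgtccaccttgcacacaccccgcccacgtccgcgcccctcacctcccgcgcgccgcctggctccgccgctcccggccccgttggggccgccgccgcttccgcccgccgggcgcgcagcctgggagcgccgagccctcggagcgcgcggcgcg
Hmgb3 (chrX:71555667-71555916, plus strand): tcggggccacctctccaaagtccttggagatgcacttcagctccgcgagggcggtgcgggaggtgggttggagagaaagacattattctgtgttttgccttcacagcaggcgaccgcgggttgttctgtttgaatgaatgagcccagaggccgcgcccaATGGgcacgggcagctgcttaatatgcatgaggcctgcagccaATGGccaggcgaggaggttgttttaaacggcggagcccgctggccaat
Hmgb2 (chr8:57511593-57511842, plus strand): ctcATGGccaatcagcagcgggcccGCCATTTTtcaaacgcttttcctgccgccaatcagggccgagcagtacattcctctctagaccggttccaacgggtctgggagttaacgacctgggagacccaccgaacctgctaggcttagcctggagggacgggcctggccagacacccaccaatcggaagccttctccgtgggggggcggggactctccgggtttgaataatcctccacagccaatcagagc
The windows of Hmga2 and Igf2bp2 held no CCAT on either strand, whereas 77.4% of 32851 promoter windows of this length held at least 1. Hmgb3 and Hmgb2 had 2 matches each. Of the windows of the 8 genes, only that of Hmgb2 matched GCCATNTT, 225 bases before the start site, and 3.91% of all windows hold a match on either strand. The 3 Hmgb genes share another run of letters, CCAAT on either strand, which was searched after these sequences had been seen and can overlap ATGG by 2 letters. It occurred 3 times in the Hmgb3 window, 4 times in that of Hmgb2 and 3 times in the first of the 2 Hmgb1 windows, against 33.8% of all windows with any match, and was not found in the second Hmgb1 window or in those of Hmga1, Hmga2 and Igf2bp2. Igf2bp3 and Lin28b had 1 match each. The Hmga2 window is made up of C and T to 70.8%, a share that 0.414% of all windows reach, while G and C make up 77.2% of the Igf2bp2 window, 72.8% and 73.2% of the Hmga1 windows and 78.8% of the second Hmgb1 window, against a median of 52.4% over all windows.

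Hmga2 was nearly silent in freshly isolated cells and among the abundant messages after activation, in both genotypes. Its gene lies on chromosome 10 from 119798331 to 119913991 (mm9, the build of the tables). It stood at 0.0870 FPKM in the freshly isolated WT library, 0.0289 in the freshly isolated iKO library, 55.4 in the activated WT library and 38.8 in the activated iKO library. Both activated libraries were thus far above both fresh ones, and in the activated pair the iKO library was the lower. For activation, libraries were first scaled to the same sum of FPKM without small RNA genes, and ratios were taken after adding 1 FPKM. The tables of the 2 states may have been normalized separately, so such values describe these libraries only. On that scale Hmga2 was 54.1-fold higher on activation in WT (log2 5.76) and 33.0-fold in iKO (log2 5.04). Relative to the median of all genes, 0.50 in WT and −0.05 in iKO, the log2 values were 5.26 and 5.09. Of 11816 genes measured in the WT comparison, 99.9% had a lower ratio. The value of 1 added to each level sets the size of this ratio, since with 0.1 added its log2 value was 8.29 in WT and 7.94 in iKO. Summed with a pseudogene described below, Hmga2 was 25.3-fold higher in WT and 19.7-fold in iKO.

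**Figure D1:**
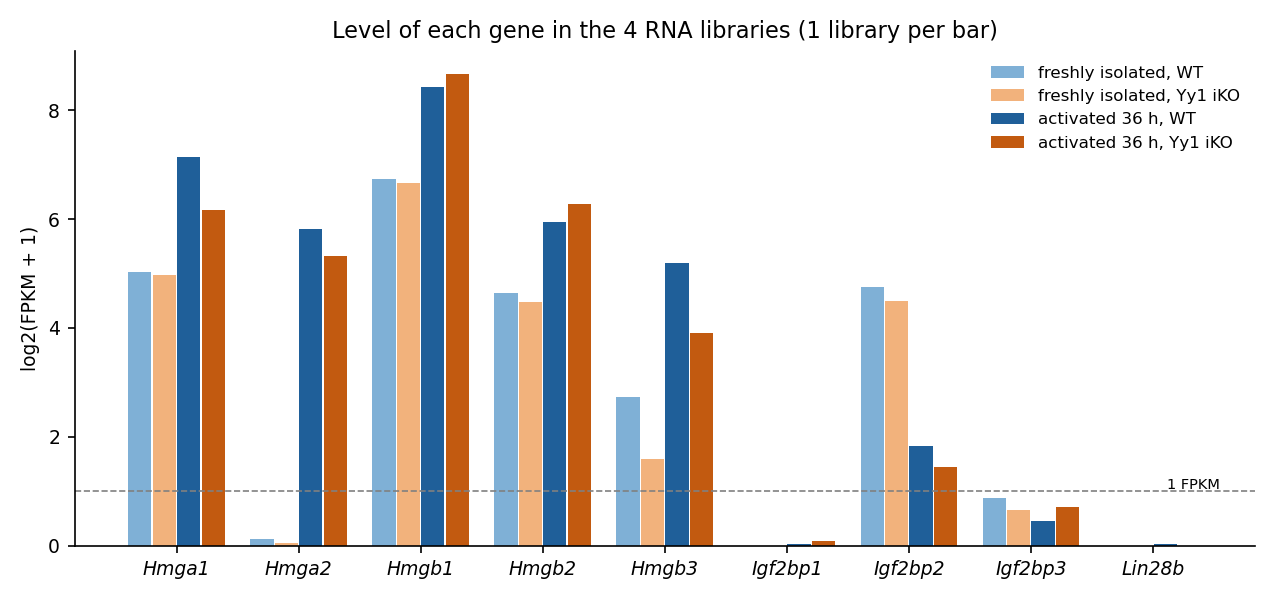
Each bar is log2(FPKM + 1) of 1 gene in 1 library, coloured by state and genotype, and the dashed line marks 1 FPKM. Hmga2 is near 0 in both freshly isolated libraries and at 55.4 and 38.8 FPKM in the activated ones, Igf2bp2 runs the other way, and Igf2bp1, Igf2bp3 and Lin28b lie under 1 FPKM in every library.

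Hmga1, the sister gene, was already present in freshly isolated cells. Its locus on chromosome 17, from 27693519 to 27700617 (mm9), spans 7.10 kb. Hmga1 stood at 31.8 and 30.3 FPKM in the freshly isolated WT and iKO libraries and at 139 and 71.1 in the activated ones. Both activated libraries were above both fresh ones, and in the activated pair the iKO library was the lower. The log2 ratio of iKO over WT was −0.07 in freshly isolated cells and −0.96 in activated cells, just within 2-fold. On activation it was 4.61-fold higher in WT and 1.64-fold in iKO. The sources used here do not say how reads that match more than 1 place were counted, so the level of Hmga1 is uncertain, and no difference between genotypes is read from it.

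The make-up of the Hmga family differed between the states. Hmga2 held 0.273% of the summed FPKM of Hmga1 and Hmga2 in the freshly isolated WT library, 0.0954% in the iKO library, 28.5% after activation in WT and 35.3% after activation in iKO. Since the level of Hmga1 is uncertain, nothing is read from the order of the genotypes in these shares. A pseudogene of Hmga2, Hmga2-ps1, is listed at another locus, shared with Sdccag8, at 2.11 and 1.66 FPKM in freshly isolated and 19.5 and 30.1 in activated cells. Summed with it, Hmga2 stood at 74.96 and 68.9 FPKM in the activated WT and iKO libraries, a log2 ratio of −0.12 in place of −0.50.

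The Hmgb genes were all present in freshly isolated cells and all higher after activation. Hmgb1 (chromosome 5, 149858804 to 149864613), an abundant nuclear protein that also acts as an alarm signal outside cells, stood at 106 and 100.2 FPKM in freshly isolated WT and iKO cells and at 344 and 404 in activated ones. It was the most abundant of the 9 genes in every library, and in the activated WT library it ranked 203 from the top among all listed symbols. Hmgb2 (chromosome 8, 59990640 to 59994796), a relative that is abundant in dividing cells, stood at 23.9 and 21.3 FPKM and then at 61.0 and 76.3. For both genes the iKO library was the lower by little in freshly isolated cells and the higher in activated cells. Their log2 ratios in activated cells, 0.23 and 0.32, turned below 0 when the libraries were scaled to equal sums, with or without small RNA genes, yet lay above the median of all genes under each of the scalings run.

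Hmgb3 had another pattern. This X-linked gene (68809092 to 68813848), known from blood stem cells, stood at 5.61 FPKM in freshly isolated WT cells, 2.03 in freshly isolated iKO cells, 35.6 in activated WT cells and 14.0 in activated iKO cells. The iKO library was lower in both states. The log2 ratios, again with 1 FPKM added, were −1.13 in freshly isolated cells (2.18-fold lower) and −1.29 in activated cells (2.44-fold lower). The difference between the states was −0.16, and 0.08 with 0.1 FPKM added in place of 1. It was −0.74 with libraries scaled to equal sums without small RNA genes and −1.44 with the sum over all genes. Hmgb1 was 18.9 times as abundant as Hmgb3 in freshly isolated WT cells and 49.4 times in iKO cells, and after activation 9.66 and 28.8 times. Within the family sum, Hmgb3 held 4.15% and 1.64% before and 8.09% and 2.84% after activation, while Hmgb1 held between 78.1% and 81.7% in all 4 libraries. Over the 368 measured genes of the X chromosome the median log2 ratio was −0.03 in freshly isolated cells, where 1 gene was below Hmgb3. In activated cells the median over 365 X-linked genes was −0.21, 23 of them were below Hmgb3, and 12.3% were at least 2-fold lower, against 8.26% of all genes.

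On activation all 3 Hmgb genes were at least 2-fold higher in both genotypes, on the scaled FPKM + 1 scale. Hmgb3 was 5.94-fold higher in WT and 3.76-fold in iKO, Hmgb1 3.49-fold and 2.83-fold, and Hmgb2 2.68-fold and 2.47-fold. Which genotype had the larger ratio depended on the scaling for Hmgb1 and Hmgb2. Their log2 ratios were 1.80 and 1.42 in WT and 1.502 and 1.31 in iKO, but 1.30 and 0.93 in WT and 1.59 and 1.39 in iKO with upper-quartile scaling. The median of all genes, at 0.50 in WT and −0.05 in iKO, differed as well, and relative to it Hmgb1 and Hmgb2 were higher in iKO. For Hmgb3 the WT ratio was the larger under each scaling run. With libraries scaled to the sum over all genes, Hmgb1 (0.78) and Hmgb2 (0.59) did not reach 2-fold in iKO. Hmgb2 in WT, at 0.93 with upper-quartile scaling, did not reach it either.

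Of the RNA-binding proteins, Igf2bp2 was the only member of its family above 1 FPKM, and its level went opposite to that of Hmga2. Igf2bp2 (chromosome 16, 22059082 to 22163372), the family member that adult tissues retain, stood at 26.0 FPKM in freshly isolated WT cells, 21.5 in freshly isolated iKO cells, 2.57 in activated WT cells and 1.71 in activated iKO cells. Both fresh libraries were above both activated ones, and the iKO library was the lower in each state. On activation it was 7.09-fold lower in WT (log2 −2.83) and 10.955-fold lower in iKO (log2 −3.45), with 3.29% and 3.14% of genes at a lower ratio. The median of all genes was 0.50 in WT and −0.05 in iKO, and relative to it Igf2bp2 stood at −3.33 and −3.41. No difference between genotypes is read from these activation ratios. In the freshly isolated WT library Igf2bp2 was 298 times as abundant as Hmga2, and in the activated WT library Hmga2 was 21.6 times as abundant as Igf2bp2. In the activated iKO library the corresponding factor was 22.7. Fibroblast markers were lower on activation as well, by the sums given above, and their part in the level of Igf2bp2 was not tested.

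Igf2bp3 (chromosome 6, 49035217 to 49164953) stood at 0.834, 0.582, 0.364 and 0.644 FPKM in freshly isolated WT and iKO and activated WT and iKO cells. Igf2bp1 (chromosome 11, 95818478 to 95867258) was listed at 0 in both freshly isolated libraries and stood at 0.0241 and 0.0608 FPKM in the activated ones. Lin28b (chromosome 10, 45096425 to 45190007) was listed at 0 in 3 libraries and at 0.0252 FPKM in activated WT cells. These are the forms known from embryonic and tumour cells, and none reached 1 FPKM in any library. Depth is unknown in FPKM, so no detection floor is given for them. Igf2bp2 made up 96.9% and 97.4% of the family sum in freshly isolated cells and 86.9% and 70.8% in activated cells, the last 2 shares being of sums of only 2.96 and 2.41 FPKM. All 11 let-7 gene symbols were listed at 0 in all 4 libraries of polyadenylated RNA, so let-7 was not measured.

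**Figure D2:**
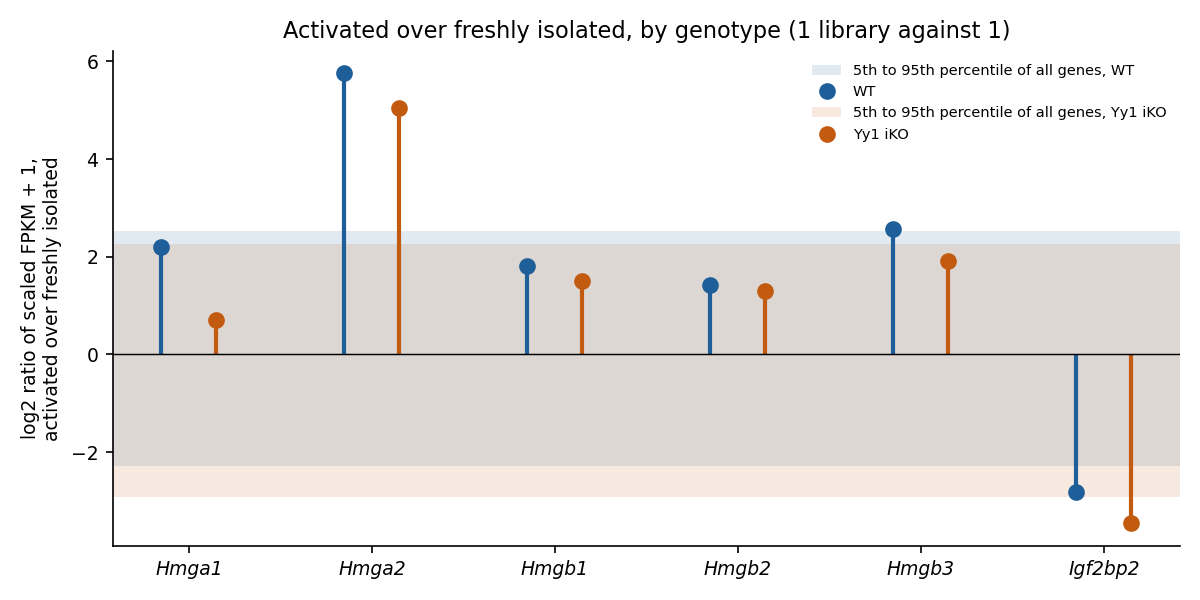
Points are log2 ratios of scaled FPKM + 1, activated over freshly isolated, for the 6 genes that reached 1 FPKM, with WT in blue and iKO in orange. Shaded bands span the 5th to 95th percentile of all genes. Hmga2 lies far above both bands at 5.76 and 5.04. Igf2bp2 lies below the band of the same genotype at −2.83 in WT and −3.45 in iKO.

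Counted over the genes measured on activation, 5 of 6 were at least 2-fold higher and 1 lower in WT, where 34% of 11816 genes were higher and 15.9% lower. In iKO 4 of 6 were higher and 1 lower, where 23.4% of 11797 genes were higher and 27.9% lower. The split over all genes depends on the scaling: with upper-quartile scaling it was 21.9% higher and 22.7% lower in WT, and in iKO it was 12.6% and 41.9% with the sum over all genes and 33.7% and 20.6% without scaling. The gene that was counted in WT and not in iKO is Hmga1, whose value is uncertain as said. Without scaling its log2 ratio in iKO was 1.20, and 5 of 6 were then higher in both genotypes. With upper-quartile scaling 4 of 6 were higher in each genotype, Hmgb2 in WT being short of 2-fold at 0.93. The median over the 6 genes was 2.00 in WT and 1.40 in iKO, against 0.50 and −0.05 for all genes. As a reference for the cell cycle, 12 of 12 proliferation markers were at least 2-fold higher in WT and 11 of 12 in iKO. Their medians were 4.59 and 3.52, so in WT 5.76 for Hmga2 was above and the Hmgb values below the typical proliferation gene. Summed with its pseudogene, Hmga2 stood at 4.66 in WT, close to the marker median, and at 4.30 in iKO.

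Between the genotypes the differences were smaller. In freshly isolated cells 5 of the 9 genes reached 1 FPKM in at least 1 library, and 1 of these, Hmgb3, was at least 2-fold lower in iKO and none higher, where 0.721% of 11229 genes were lower and 0.677% higher. All 5 had ratios below 0, but the other 4 lay between −0.26 and −0.07, within the spread of all genes, whose standard deviation was 0.39. In activated cells 6 genes were measured, and Hmgb3 was again the 1 at least 2-fold lower, with none higher, where 8.26% of 11215 genes were lower and 8.74% higher. Scaled to equal sums over all genes, 0.366% were higher and 58.4% lower, and without small RNA genes 1.69% and 23.5%. Hmga1 and Hmga2 then passed 2-fold lower as well, with Hmgb1 and Igf2bp2 added under the first of these scalings. The median of the 6 was −0.45 against −0.00 for all genes. Of the 5 genes measured in both states, none had a log2 ratio that differed by 1 or more between activated and freshly isolated cells, where 8.72% of 10251 genes had a higher and 7.92% a lower one. Since the genes were chosen with these values known, nothing is read from the counts.

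**Figure D3:**
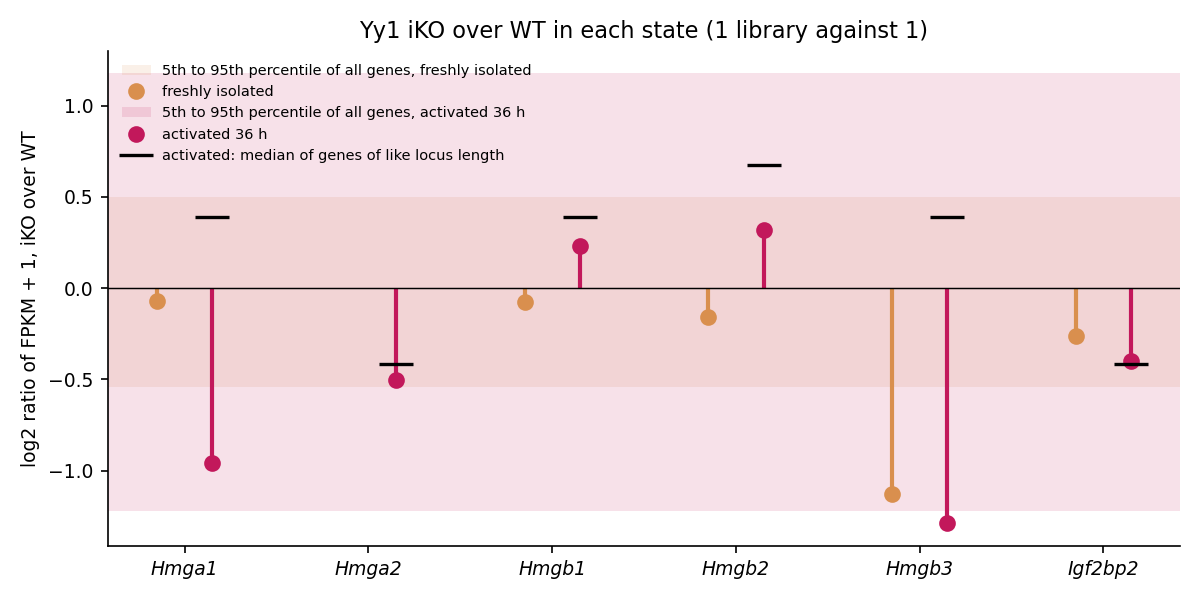
Points are log2 ratios of FPKM + 1, iKO over WT, in freshly isolated (orange) and activated (magenta) cells. Bands span the 5th to 95th percentile of all genes, and black dashes give the median of all genes in the same decile of locus length in activated cells. Hmga2 has no freshly isolated point because it was under 1 FPKM there. Hmgb3 is the lowest in both states, and Hmga2 and Igf2bp2 sit close to their dashes.

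In activated cells the ratio of a gene moved with the length of its locus. In decile 1, the shortest loci, the median log2 ratio of all genes was 0.67, in decile 2 it was 0.39 and in decile 9 it was −0.42. Hmga2 at −0.50 and Igf2bp2 at −0.40, whose loci of 116 and 104 kb fall in decile 9, lay −0.09 and 0.02 from the median of their decile. Hmgb1 (0.23, decile 2) and Hmgb2 (0.32, decile 1) lay −0.16 and −0.35 from theirs, although above 0. Hmgb3, with a locus of 4.76 kb, lay −1.68 from the median of its decile, and Hmga1, uncertain as said, −1.35. In freshly isolated cells the medians of the deciles lay between −0.04 and 0.04. The part of locus length in the single ratios was not tested.

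No YY1 peak was found at any of the 9 genes. The authors' list holds 2031 peaks from activated cells, and none had its summit inside a locus of these genes or within 2 kb of its ends, where 6.93% of all 24312 listed symbols had one. The nearest summit was 49.1 kb away for Igf2bp3, 59.8 kb for Hmga1, 102 kb for Igf2bp2, 202 kb for Hmga2 and 1440 kb for Hmgb3, with a median of 202 kb over the 9 genes. Igf2bp3 was the only gene with a summit within 50 kb, as were 17.6% of all symbols. The peak nearest to Igf2bp2 (chromosome 16, 22265392 to 22265539) had a fold enrichment of 8.09 and a −log10 q of 7.79 in the authors' list, whereas those nearest to Hmga2, Hmgb1 and Hmgb3 had a −log10 q of 0.246, 0 and 1.14. The list comes from 1 immunoprecipitation, and the sources used here do not say how it was filtered.

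The messages and signalling genes that IGF2BP proteins and insulin-like growth factors are known for also differed between the states. Igf2, the growth factor whose message gave the family its name, stood at 54.5 and 91.6 FPKM in freshly isolated WT and iKO cells and at 4.39 and 2.32 in activated ones and was thus, as Igf2bp2 was, the lower after activation. H19, the noncoding RNA of the same imprinted region, went the other way, from 10.6 and 20.7 to 98.8 and 31.6. In both genes the iKO library was the higher in freshly isolated and the lower in activated cells. Of 19 genes of this list measured on activation in WT, 9 were at least 2-fold lower and 4 higher, where 15.9% of all genes were lower and 34% higher (22.7% and 21.9% with upper-quartile scaling). The binding proteins Igfbp4 (169 to 8.95 FPKM) and Igfbp5 (185 to 4.21) were among the lower, and Igfbp3 (9.27 to 83.2) was higher. Fibroblast markers were lower too, Dcn going from 104 to 4.95 FPKM and Dpt from 146 to 0.317, and their part in these levels was not tested. Myc, a target of IGF2BP binding, stood at 475 and 435 FPKM in freshly isolated and 181 and 140 in activated cells.

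In activated cells 4 of 17 measured genes of that list were at least 2-fold lower in iKO and none higher, where 8.26% of all genes were lower and 8.74% higher on the deposited scale, with a median of −0.56 against −0.00 for all genes and 15 of 17 below 0. The adaptor proteins that carry the signal of the insulin and IGF receptors had the lowest ratios. Irs1 had 14.1 FPKM in WT against 1.22 in iKO, and Irs2 at 7.20 and 0.648, log2 ratios of −2.77 and −2.32. Igf2r, which clears Igf2 from the surface, stood at 16.2 and 6.12, and H19 at 98.8 and 31.6, while the receptor Igf1r, at 12.8 and 5.99, was just within 2-fold after 1 FPKM was added (1.97-fold). Nras, another IGF2BP target, was higher in iKO within 2-fold at 41.1 and 48.7. The loci of Irs1 and Irs2 fall in decile 8 and those of Igf1r and Igf2r in decile 10, where the medians of all genes were −0.31 and −0.48. In freshly isolated cells the list had a median of 0.01, and 1 of its 18 measured genes, the adhesion receptor Cd44 (108 and 44.2 FPKM), was at least 2-fold lower. None was higher, where 0.721% of all genes were lower and 0.677% higher.

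Genes of the machinery through which let-7 and Lin28b act differed little between genotypes in freshly isolated cells, and several were lower in the activated iKO library. Of 13 measured genes 4 were at least 2-fold lower there and none higher, with a median of −0.55, where 8.26% of all genes were lower and 8.74% higher. Zcchc11, the uridylyltransferase that marks let-7 precursors with LIN28, had levels of 12.8 FPKM in WT against 2.69 in iKO. Ago2, the slicing Argonaute, stood at 14.8 and 3.19, Xpo5, which exports precursors from the nucleus, at 50.1 and 17.4, and Tnrc6b, an Argonaute partner, at 3.98 and 1.15. The processing enzyme Drosha (29.0 and 23.5) and its partner Dgcr8 (25.1 and 21.2) were close to WT. The processing enzyme Dicer1 was lower in iKO within 2-fold, at 13.6 and 8.17 (log2 −0.67). In freshly isolated cells none of these 13 genes passed 2-fold, where 0.677% of all genes were higher and 0.721% lower. Their ratios lay between −0.31 and 0.31. Zcchc11 and Ago2 fall in decile 9 of locus length and Tnrc6b in decile 10, but Xpo5 in decile 7, where the median of all genes was −0.17. Lin28a was listed at 0 in all 4 libraries.

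**Figure D4:**
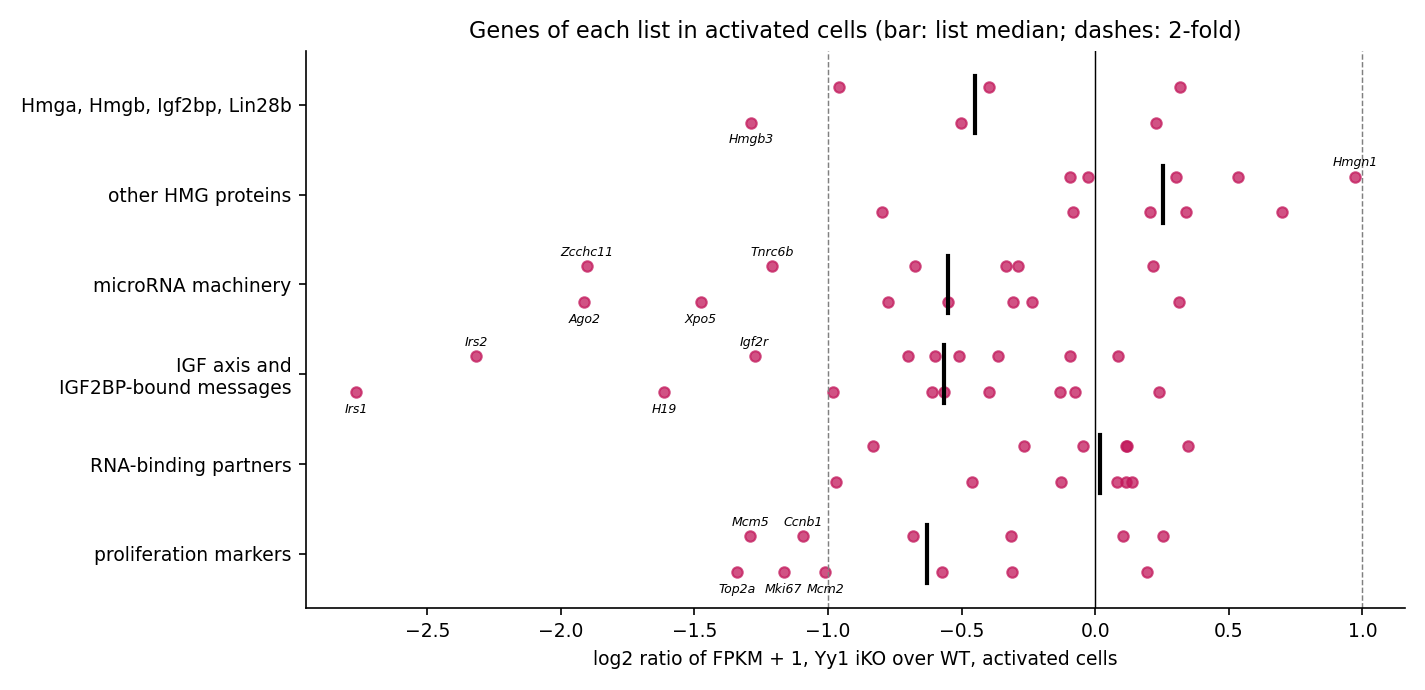
Each point is the log2 ratio of FPKM + 1, iKO over WT, of 1 gene in activated cells, by list, for genes that reached 1 FPKM in either library. Black bars are list medians, dashed lines mark 2-fold, and points are offset vertically only for legibility. The lists of microRNA machinery and of the IGF axis have medians of −0.55 and −0.56 with 4 genes each beyond 2-fold lower, and that of other HMG proteins lies at 0.26. Proliferation markers have a median of −0.63, with 5 of 12 beyond 2-fold lower. Of all genes, 8.26% were at least 2-fold lower and 8.74% higher.

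Genes with a like pattern were sought by the Euclidean distance of log2(FPKM + 1), centred on each gene, over the 4 libraries and 11533 genes. Nearest to Hmga2 were Uhrf1, a factor of DNA methylation upkeep in replication (distance 0.69), the mitotic kinase Pbk (0.72), the asparagine synthetase Asns (0.79), the ribonucleotide reductase subunit Rrm2 (0.84) and the ubiquitin ligase partner Ube2c (0.86). Uhrf1 stood at 1.22, 0.806, 73.3 and 43.2 FPKM in freshly isolated WT and iKO and activated WT and iKO cells. Nearest to Igf2bp2 were the interferon signal factor Stat2 (0.07), Serinc5 (0.11), the matrix-associated growth regulator Ctgf (0.12), Cyp39a1 (0.14) and the growth factor receptor Fgfr1 (0.15). Stat2 stood at 25.8, 22.5, 2.50 and 1.79 FPKM, almost the values of Igf2bp2. Nearest to Hmgb2 were the mitochondrial protease Lonp1 (0.04), Tmem167 (0.06), the kinase Cdk7 (0.06), Metap1 (0.07) and the mitochondrial thioredoxin reductase Txnrd2 (0.07).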

How the data were processed

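RNA was measured in 4 libraries and YY1 binding in 1 immunoprecipitation with 1 input. The deposited expression values are FPKM per the file headers, in 1 table per state. Per the submitters' processing notes, the build was mm9 and the tools were MACS2 2.1.0, TopHat2 and Cufflinks 2.2.1, with no step given for any of them. The sources used here name no annotation, strand setting or scaling between libraries. A column's genotype comes from its header and its state from the table that holds it.

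The peak list follows the narrowPeak layout per its columns. Its deposited score is a whole number, its fold enrichment is the authors' ratio over background, and its −log10 p and −log10 q are the authors' own. The deposited summit offset is another value per peak, counted in bases from the peak's start. A summit was set against the gene locus of the table, whose ends stand in for start sites.

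Ratios are log2 of FPKM + 1 for genes at 1 FPKM or more in either library, and "2-fold" is a rule of size, not a test. The pseudocount understates ratios of low genes. Among genes at up to 0.3 FPKM in both libraries, the commonest iKO to WT ratio, within 1%, was 0.99 in freshly isolated (27.6% of 1542 genes) and 1.5 in activated cells (17.2% of 1573 genes). Total depth is unknown. The script for the ratios was checked on simulated data. Named genes were the 9, Yy1, listed genes that reached 1 FPKM in any library, and the 5 genes nearest in pattern to each of Hmga2, Igf2bp2 and Hmgb2, small RNA, LOC, Gm and Rik symbols left out. Lin28a, Ptprc, let-7 and Hmga2-ps1 are named outside that rule. Alternatives were a pseudocount of 0.1, no filter or one at 5 FPKM, other scalings, sums with near-copies, and other peak cutoffs. 1 listed gene, and the alternative that needs it, are not reported here. The members and lists were chosen with earlier results of these data known. Python 3.11.15 with numpy, pandas and matplotlib was used.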

Additional observations from a re-analysis of the deposited data

Results flagged for a closer look

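For 2 of the 5 genes that reached 1 FPKM in both states, the iKO over WT ratio had opposite signs in the 2 states. This difference was not tested and rests on 1 library per group. The median ratio of all genes was −0.00 in both states. The share of all genes with opposite signs was not counted, so nothing is read from the number of such genes. Hmgb1 was 0.31 higher in its log2 ratio in activated than in freshly isolated cells, and Hmgb2 0.47 higher. With activated libraries scaled to equal sums, with or without small RNA genes, both activated ratios were below 0 as well, so the opposite signs depend on the scaling. Among genes of the IGF list with a difference of at least 1, opposite signs were found for Igf2 (−1.44), H19 (−2.52), Irs1 (−2.77) and Irs2 (−2.35). Whatever the signs, 7.92% of 10251 genes had a ratio lower by 1 or more in activated cells. For Irs1 and Irs2 the freshly isolated ratio was 0.01 and 0.03, close to 0. Igf2bp3, under 1 FPKM in each library, had ratios of −0.21 and 0.27.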

How the results depend on the processing

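No paired analysis was possible because each group holds 1 library. The ratios of freshly isolated cells kept their counts under each alternative run. In activated cells the deposited scale set the median of all genes near 0, while scaling to the sum over all genes moved it by −1.15 and scaling to the sum without small RNA genes by −0.50. Members at least 2-fold lower in iKO then numbered 5 and 3 in place of 1, and members whose activated ratio was lower than the freshly isolated one by 1 or more numbered 4 and 1 in place of 0, where 60.3% and 24.9% of 10251 genes were lower by as much. On activation in iKO, scaling to the sum over all genes left 2 in place of 4 members at least 2-fold higher, Hmgb1 and Hmgb2 being lost. On activation in WT, upper-quartile scaling left 4 in place of 5, Hmgb2 being lost. For values that contain Hmga1, the effect of how reads were divided is not reported here. The sum of Hmga2 with its pseudogene was an alternative chosen after seeing the data. A wider peak window (10 kb) left 0 members with a peak at a locus end. A −log10 q of at least 5 gave 0 as well, but these peaks are part of the same list, so no other count was possible. Low levels, of Igf2bp1, Igf2bp3 and Lin28b, are limited by a depth that is unknown.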

Other observations

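Other proteins with HMG domains or nucleosome-binding HMG motifs were described by a separate list. In activated cells 6 of 10 measured genes had a ratio above 0 and none passed 2-fold, with a median of 0.26 on the deposited scale against −0.00 for all genes, 8.74% of which were at least 2-fold higher and 8.26% lower. Hmgn1, a nucleosome-binding protein, had 485 FPKM in WT against 951 in iKO, a log2 ratio of 0.97, and Hmgn2 had 198 and 251. Ssrp1, the HMG-box subunit of the histone chaperone FACT, stood at 202 and 250 FPKM. Hmgxb3 went the other way at 20.1 and 11.1. Hmgn2, Hmgn1, Ssrp1 and Hmgxb3 fall in deciles 1, 2, 3 and 7 of locus length. The medians of all genes there were 0.67, 0.39, 0.25 and −0.17, and Hmgn2, at a log2 ratio of 0.34, was below that of its decile. The part of locus length in these ratios was not tested. On activation in WT, Ssrp1 went from 47.0 to 202 FPKM and Hmgn2 from 56.7 to 198. Of this list, Tox4 and Hmgxb4 had a YY1 peak within 2 kb of a locus end, where 6.93% of all symbols had one there or inside. Their fold enrichment was 7.76 and 5.18 and their −log10 q 7.27 and 2.08 in the authors' list. Of the IGF, microRNA and RNA-binding lists, Igf2r, Ctnnb1, Dis3l2 and Fxr1 had a summit inside the locus. The −log10 q of these peaks was 0.938, 0.329, 0 and 4.23. In activated WT and iKO cells Tox4 had 20.1 and 19.7 FPKM and Hmgxb4 11.4 and 10.6.

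Of 12 RNA-binding proteins that share cytoplasmic granules with the IGF2BP family, none passed 2-fold between genotypes in either state, where 0.677% and 0.721% of all genes were higher and lower in freshly isolated and 8.74% and 8.26% in activated cells, with medians of −0.07 in freshly isolated and 0.02 in activated cells. Ybx1 stood at 377 FPKM in activated WT and 399 in iKO cells. The lowest ratios in activated cells, were those of the helicase Dhx9, just short of 2-fold at 135 and 68.5 FPKM, and of Syncrip, at 123 and 68.9.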
